A study of Mus musculus with 2 samples.

Results

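Messenger RNAs for the proteins that build ribosomes were compared between adult and fetal blood-forming cells of the mouse, over 40 genes of ribosome biogenesis and the nucleolus out of 20651 named genes on the arrays. The members were taken by gene symbol, through the accession of each array probe, and sorted by role into RNA polymerase I, box C/D and box H/ACA ribonucleoproteins, small and large subunit processing, and multifunctional nucleolar proteins. The cells were LSK cells, the lineage-negative, Sca-1-positive, c-Kit-positive fraction that holds blood stem cells and multipotent progenitors, freshly sorted by flow cytometry. The bone marrow cells were those of adult, 8 weeks old C57BL/6 mice, and the fetal liver cells those of E14.5 embryos, for which no strain was used here. Both were wild type and came from no transplantation, each was 1 single-colour Agilent array from 20 ng of total RNA, and there were no replicates. Tissue, age and slide differ together between the arrays and cannot be told apart. The LSK fraction is itself a mixture, and a change in which of its cells were present cannot be told apart from a change in RNA per cell.

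Ribosomes are assembled in the nucleolus. RNA polymerase I copies the ribosomal DNA into a long precursor, box C/D and box H/ACA ribonucleoproteins guide its methylation and pseudouridylation, and a large set of scaffold proteins, helicases, GTPases and nucleases folds and cuts it into the small and large subunits. In blood-forming tissue the rate of protein synthesis is held low in adult stem cells, and inherited defects of ribosome production cause anaemia and marrow failure in people.

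All values are the processed spot signal on a log2 scale minus the log2 75th percentile of the same array, called the scaled level here, and a difference is always bone marrow minus fetal liver. A ± gives the scanner software's own estimate of technical error for a difference, 0.20 at the median of the members. Over the members above background on both arrays it ran only from 0.204 to 0.221, so a call beyond it is nearly a fixed cutoff. This error holds no biological spread, and with 1 array a group there is no replicate check and no p-value. Probes of the same gene on the same pair of arrays differed from each other by 0.25 at the median over 3020 genes with more than 1 probe above background. The 8 E1A spike-in controls above background on both arrays offer another scale, which adds 0.33 to each difference between signals measured on both arrays and moves the median of all 13382 measured genes to 0.23, against -0.11 on the percentile scale. A difference between -0.33 and 0 therefore changes sign between the 2 scales, whereas the gap between 2 members does not change. Members were read against the median of all genes for that reason.

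Most ribosome biogenesis messages were lower in adult bone marrow LSK cells than in fetal liver LSK cells on the percentile scale, and the shift was modest in size. The median difference over the 40 members was -0.37, against -0.11 over all measured genes, a gap of -0.26. Negative differences were seen for 34 of 40 members (85%), against 57.7% of all genes. At least 1.5-fold lower in bone marrow were 13 of 40 members (32.5%), against a background of 17.5% of all genes, and 0 members were at least 1.5-fold higher, against 14.9%. At least 2-fold lower was 1 member, Gnl3, where the background was 6.73%, and 0 were at least 2-fold higher, where it was 8.18%. On the spike-in scale the median of the members was -0.04 and that of all genes 0.23, again a gap of -0.26. Negative on that scale were 21 members (52.5%, against 32.3% of all genes), and 19 were positive. There, 3 members were at least 1.5-fold lower (background 7.82%), which were Gnl3, Npm1 and Nop58, and 1 was at least 1.5-fold higher (background 26.9%), which was Ddx21. No member was at least 2-fold lower (background 3.8%) or 2-fold higher (background 13.1%) on that scale.

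Of the 40 members 39 were well above background on both arrays and Utp18 was so in bone marrow alone. Under the 4 scalings tried, 21 members were lower in bone marrow in each, 6 were higher in each, and 13 had a sign that depended on the scaling. Utp18 is among the 6, but its value is a bound that is set so that it cannot be negative under any scaling. The same count over all genes is not given here, so these numbers describe the members alone. The members nearest the 1.5-fold mark were Wdr75, just past it at -0.585, and Polr1b, just short of it at -0.574.

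**Figure D1:**
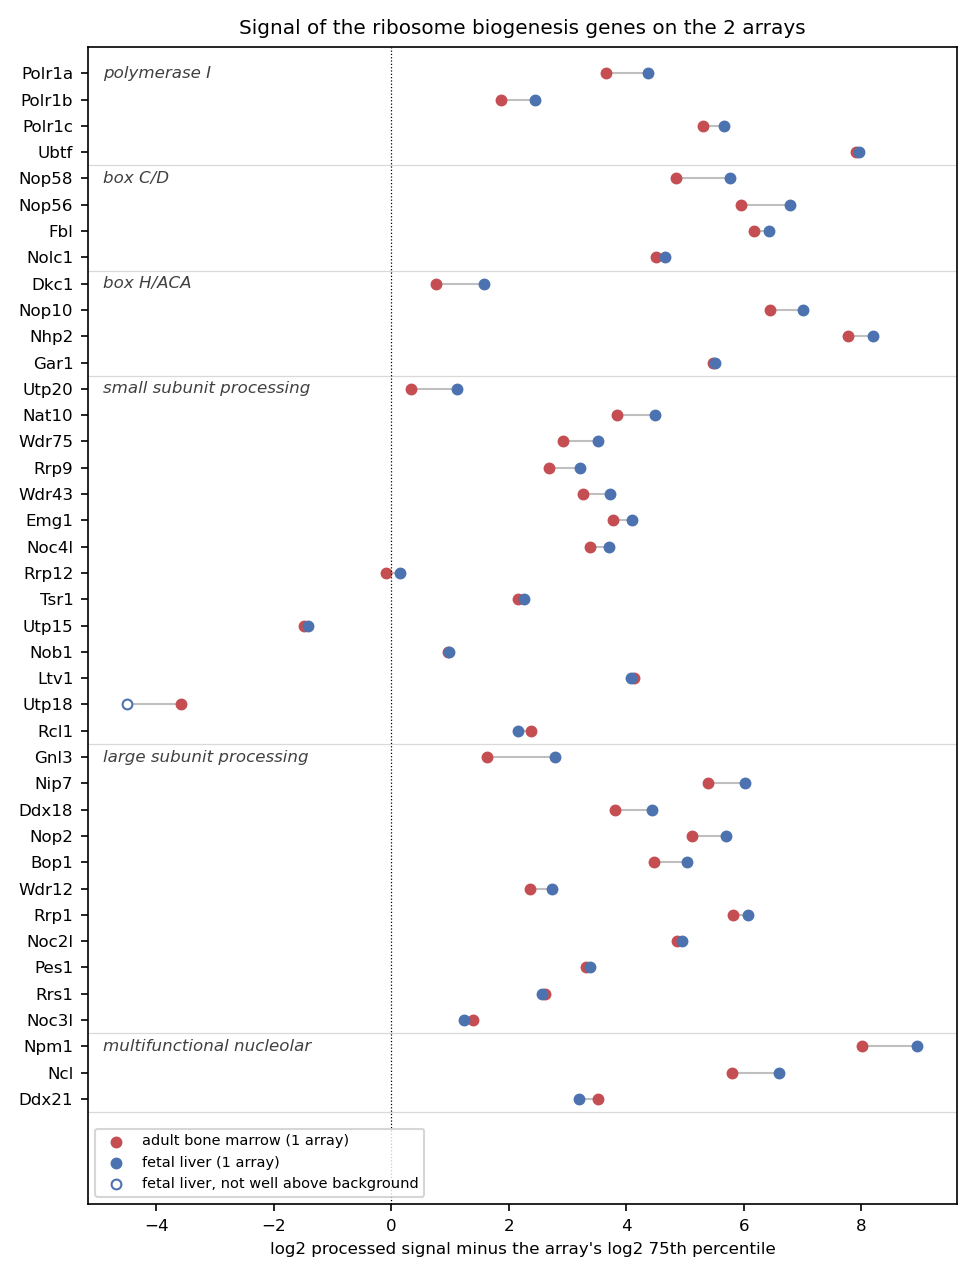
Scaled level of each of the 40 members (log2 processed signal minus the array's log2 75th percentile, horizontal axis) in adult bone marrow and fetal liver LSK cells, 1 array each, ordered by role and then by difference. The bone marrow point lies left of the fetal liver point for 34 members, and the open point of Utp18 was not well above background. Levels of different genes come from different probes and are not comparable with each other.

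Promoter sequences from RefSeq (build GRCm38.p6, 250 bases before to 50 after the annotated start) were found for 35 of the 40 members, on 15 chromosomes. They are shown to ask what the members share besides their function. The letters CACGTG, the core E-box that Myc and Max bind, were searched with CCGGAAG, a core of ETS factor sites, and the consensus palindrome of the factor NRF1, each on both strands. Matches of different motifs can share at most 1 base. An E-box stood in the window of 7 members (20% of the 35), against 8.09% of all 27025 genes with a window and 11.4% of those measured here. The ETS core stood in 12 members (34.3%), against 9.93% of all genes and 18.6% of those measured here, and the NRF1 site stood in 0, against 1.07% of all genes and 2.11% of those measured here. Of the 104 other ribosome biogenesis genes with a window, 19.2% held the E-box, 43.3% the ETS core and 3.85% the NRF1 site. Counted by window, 7.15% of all 32851 windows held the E-box, 8.86% the ETS core and 0.971% the NRF1 site. GC content was 60.7% at the median of the members' windows, against 60% for the windows of measured genes.

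The stretches around the E-box of 6 members are shown so that their flanks can be compared, with the E-box in capitals and up to 20 bases on each side within the window.
Ltv1, chr10:13193088-13193129, minus strand: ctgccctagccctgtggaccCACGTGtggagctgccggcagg
Pes1, chr11:3963957-3964002, plus strand: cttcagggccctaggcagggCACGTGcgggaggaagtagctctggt
Tsr1, chr11:74898084-74898129, plus strand: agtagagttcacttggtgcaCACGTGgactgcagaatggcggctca
Utp18, chr11:93885761-93885806, minus strand: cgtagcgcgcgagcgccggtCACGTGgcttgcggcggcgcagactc
Utp20, chr10:88826765-88826797, minus strand: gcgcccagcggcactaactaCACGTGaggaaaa
Wdr43, chr17:71616212-71616257, plus strand: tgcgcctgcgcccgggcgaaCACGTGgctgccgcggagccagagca

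The whole window of Nop2 is shown because it holds an E-box and an ETS core close to each other (both in capitals), and that of Gnl3 because its message differed most between the arrays and its window holds none of the 3 motifs.
Nop2, chr6:125131633-125131932, plus strand: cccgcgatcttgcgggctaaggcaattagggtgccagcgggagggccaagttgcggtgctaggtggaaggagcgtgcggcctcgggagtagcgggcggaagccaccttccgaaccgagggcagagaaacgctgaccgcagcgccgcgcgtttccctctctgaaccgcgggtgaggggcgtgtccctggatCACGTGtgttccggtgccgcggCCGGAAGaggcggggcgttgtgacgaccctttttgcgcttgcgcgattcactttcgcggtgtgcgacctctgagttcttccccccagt
Gnl3, chr14:31019082-31019381, minus strand: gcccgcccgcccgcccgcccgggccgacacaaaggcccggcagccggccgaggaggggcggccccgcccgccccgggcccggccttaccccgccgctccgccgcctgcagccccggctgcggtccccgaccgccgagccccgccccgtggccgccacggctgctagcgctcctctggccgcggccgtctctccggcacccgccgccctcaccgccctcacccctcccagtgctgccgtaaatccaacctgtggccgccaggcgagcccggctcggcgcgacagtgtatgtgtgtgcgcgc

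Matches stood on both sides of the 1.5-fold mark. Of the 12 members with a window that were at least 1.5-fold lower in bone marrow, 2 had an E-box (Nop2 and Utp20) and 2 an ETS core (Nop2 and Nip7). Of the 23 others with a window, 5 had an E-box and 10 an ETS core. A match of letters is a description and says nothing of whether a factor binds there.

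The polymerase I members were all below 0 on the percentile scale, with a median of -0.47 over 4 genes, and the catalytic subunits led. Genes of polymerase I transcription outside the members had both signs, among them Taf1d at -1.001 and Polr1e at 0.31. Polr1a, the largest subunit, stood at 3.65 in bone marrow and 4.37 in fetal liver (-0.71 ± 0.20), or 1.64-fold lower in bone marrow. Polr1b, the second largest subunit, stood at 1.87 in bone marrow and 2.45 in fetal liver (-0.57 ± 0.20). Both kept a negative sign on the spike-in scale, at -0.38 and -0.24. Polr1c, a subunit that polymerase I shares with polymerase III, differed less, with 5.30 in bone marrow and 5.67 in fetal liver (-0.36 ± 0.20, and -0.03 on the spike-in scale). Ubtf, the factor that opens ribosomal DNA for transcription, had nearly the same level on both arrays, 7.91 in bone marrow and 7.97 in fetal liver (-0.06 ± 0.20, and 0.28 on the spike-in scale). The gap between Polr1a and Ubtf was -0.66 ± 0.29, although the other Ubtf probe, at -0.35, narrowed it to -0.37.

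The box C/D proteins divided. Nop58 and Nop56, the paired core proteins that hold the guide RNA, were 1.91-fold and 1.80-fold lower in bone marrow. Nop58 stood at 4.84 in bone marrow and 5.77 in fetal liver (-0.93 ± 0.20), and Nop56 had 5.95 in bone marrow and 6.79 in fetal liver (-0.85 ± 0.20). Fbl, fibrillarin, the methyltransferase of the same particle, differed by only -0.26 ± 0.20, with 6.18 in bone marrow and 6.44 in fetal liver, and changed sign on the spike-in scale (0.08). Nop58 lay below Fbl by -0.67 ± 0.29 and Nop56 below Fbl by -0.59 ± 0.29, both over 2 times their technical error. The gap of Nop58 stayed over that mark in all 9 settings run, of which only quantile normalization (-0.71) and normexp (-0.81) moved it. The gap of Nop56 rests on its brighter probe. Its second probe, at -0.48, puts Nop56 -0.22 from Fbl, within the error, and the mean of its probes puts it at -0.41. Nop58 and Nop56 lay within the error of each other (-0.09 ± 0.29). Nolc1, a chaperone of both classes of particle, was at 4.51 in bone marrow and 4.66 in fetal liver (-0.15 ± 0.20). Its other probe gave 0.02, and on the spike-in scale Nolc1 was at 0.18.

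The box H/ACA genes, from the lowest difference, were Dkc1, Nop10, Nhp2 and Gar1, though not every step between them exceeded its error. Dkc1, dyskerin, the pseudouridine synthase that is also part of telomerase, was at 0.76 in bone marrow and 1.58 in fetal liver (-0.82 ± 0.20, 1.77-fold lower in bone marrow). Nop10, a small core protein bound to it, was at 6.44 in bone marrow and 7.01 in fetal liver (-0.57 ± 0.20). Nhp2, a core protein that contacts the RNA, was at 7.78 in bone marrow and 8.20 in fetal liver (-0.42 ± 0.20). Gar1, which binds dyskerin in the mature particle, was at 5.47 in bone marrow and 5.51 in fetal liver (-0.04 ± 0.20). The gap between Dkc1 and Gar1 was -0.79 ± 0.29, while neighbours in this order lay at -0.25 ± 0.29 (Dkc1 and Nop10), -0.15 ± 0.29 (Nop10 and Nhp2) and -0.38 ± 0.29 (Nhp2 and Gar1). With normexp background correction the gap between Dkc1 and Gar1 was -0.51, under 2 times its error, and that between Nop10 and Nhp2 changed sign (0.01). On the spike-in scale the first 3 stayed negative, at -0.49, -0.23 and -0.09, and Gar1 was at 0.30.

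**Figure D2:**
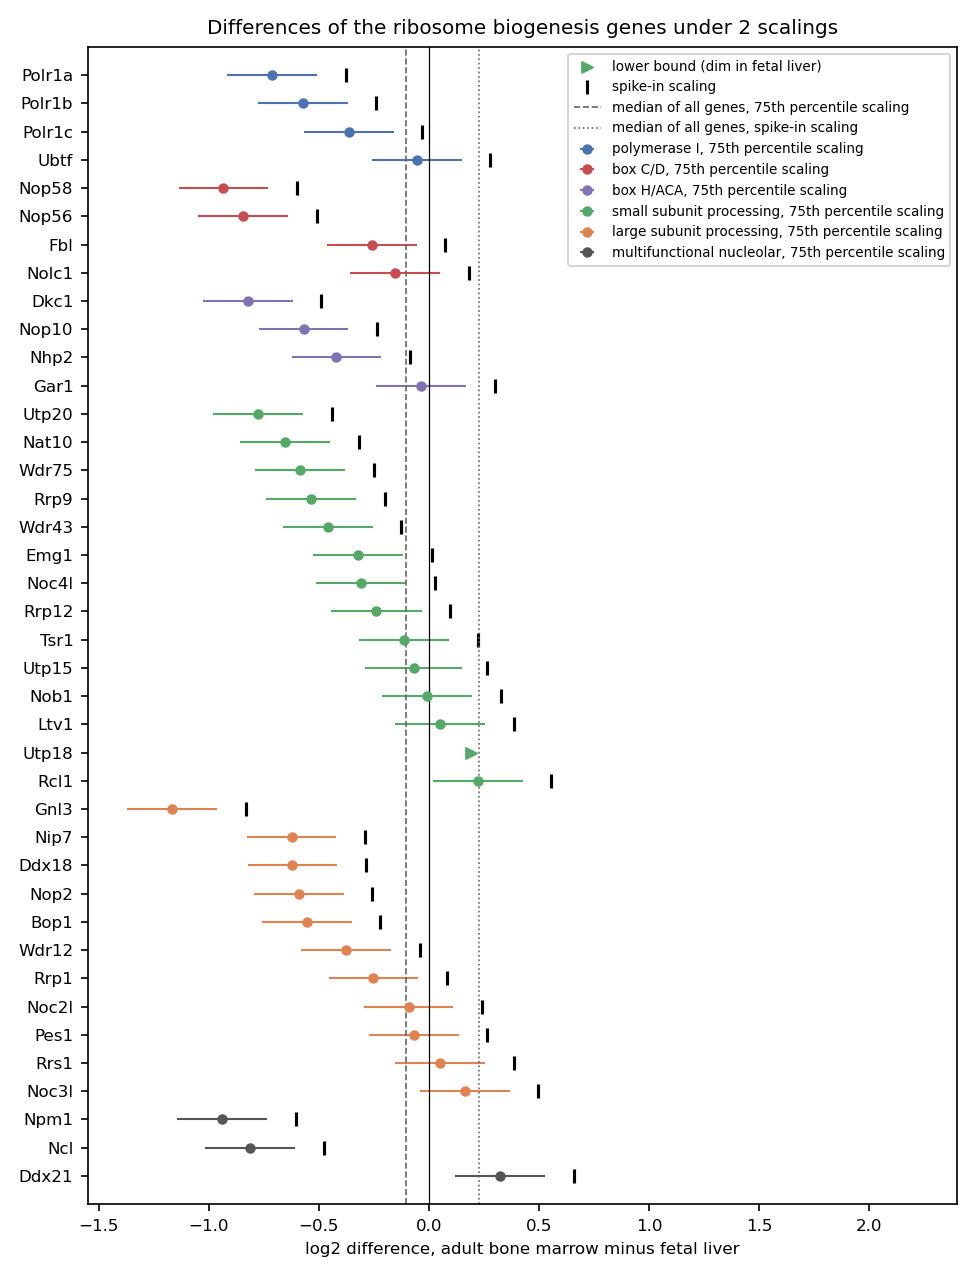
Log2 difference of each member, adult bone marrow minus fetal liver (horizontal axis), as points with the technical error of the image software under percentile scaling and as black ticks under spike-in scaling, coloured by role. The dashed and dotted lines mark the medians of all genes at -0.11 and 0.23, and the spike-in ticks lie 0.33 to the right of the points, so the order of the members is the same on both scales. The triangle of Utp18 is a lower bound.

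Small subunit processing genes had the least negative median of the 6 roles, -0.27 over 14 members (0.06 on the spike-in scale and -0.11 with normexp background correction). At least 1.5-fold lower in bone marrow were 3 of the 14 (21.4%), near the 17.5% of all genes. Utp20, a very large scaffold of the small subunit processome, was at 0.34 in bone marrow and 1.11 in fetal liver (-0.78 ± 0.21). Nat10, which acetylates cytidines of 18S rRNA, was at 3.84 in bone marrow and 4.49 in fetal liver (-0.65 ± 0.20). Wdr75, a subunit of the UtpA complex that binds the precursor first, was at 2.93 in bone marrow and 3.51 in fetal liver (-0.59 ± 0.20). These 3 stayed negative on the spike-in scale, between -0.44 and -0.25.

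Rrp9, a protein specific to the U3 particle, differed by -0.54 ± 0.20, with 2.68 in bone marrow and 3.21 in fetal liver. Wdr43, also of UtpA, was at 3.27 in bone marrow and 3.73 in fetal liver (-0.46 ± 0.20), with a second probe at -0.45. Utp15, the third UtpA protein among the members, was nearly level at -1.49 in bone marrow and -1.42 in fetal liver (-0.07 ± 0.22, and 0.27 on the spike-in scale). Its signals were dim, 63.6 in bone marrow and 50.03 in fetal liver. The next 4 were negative on the percentile scale and positive on the spike-in scale. Emg1, a methyltransferase of 18S rRNA, was at 3.78 in bone marrow and 4.10 in fetal liver (-0.32 and, spike-in scaled, 0.01). Noc4l, a processome protein, was at 3.39 in bone marrow and 3.70 in fetal liver (-0.31 and 0.03). Rrp12, an export factor, was at -0.09 in bone marrow and 0.15 in fetal liver (-0.24 and 0.10), and Tsr1, a GTPase-like assembly factor, at 2.16 in bone marrow and 2.27 in fetal liver (-0.11 and 0.22, second probe -0.01).

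Nob1 and Ltv1, members that act at late cytoplasmic steps, hardly differed in level on the percentile scale. Nob1, the nuclease that makes the mature end of 18S rRNA, was at 0.97 in bone marrow and 0.98 in fetal liver (-0.01 ± 0.20, and 0.33 on the spike-in scale). Ltv1, a late assembly factor, was at 4.13 in bone marrow and 4.08 in fetal liver (0.05 ± 0.20). Rcl1, a cyclase-like protein of the earlier processome, was higher in bone marrow by 0.22 ± 0.20, at 2.39 in bone marrow and 2.17 in fetal liver. For Utp18, a processome protein, the bone marrow signal was 14.9 and the fetal liver signal 5.96. The fetal liver signal was not well above background, so the difference of Utp18 is a bound of 0.19, or 1.14-fold higher in bone marrow. Its technical error of 0.68 exceeds that bound. The lowest bone marrow signal called well above background was 12.4, so no firm minimum can be given.

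Large subunit processing genes had a median of -0.38 over 11 members (-0.04 on the spike-in scale), with 4 of the 11 (36.4%) at least 1.5-fold lower in bone marrow, against 17.5% of all genes. Gnl3, nucleostemin, a nucleolar GTPase known for its high level in stem and progenitor cells, had the lowest difference of the 40 members. Its scaled level was 1.63 in bone marrow and 2.79 in fetal liver. The difference was -1.17 ± 0.20, which is 2.25-fold lower in bone marrow and -0.83 on the spike-in scale. It rests on 1 probe, whose unscaled signal was 553 in bone marrow and 930.2 in fetal liver. Nip7, a pre-60S assembly factor, was at 5.39 in bone marrow and 6.02 in fetal liver (-0.62 ± 0.20), with its second probe at -0.35. Ddx18, a helicase, was at 3.82 in bone marrow and 4.44 in fetal liver (-0.62 ± 0.20, second probe -0.56). Nop2, a methyltransferase of 28S rRNA, was at 5.11 in bone marrow and 5.70 in fetal liver (-0.59 ± 0.20).

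Bop1, Wdr12 and Pes1 form the PeBoW complex of large subunit maturation, and their messages did not differ alike. Bop1 was at 4.47 in bone marrow and 5.03 in fetal liver (-0.56 ± 0.20). Wdr12 was at 2.36 in bone marrow and 2.74 in fetal liver (-0.38 ± 0.20). Pes1 was at 3.32 in bone marrow and 3.39 in fetal liver (-0.07 ± 0.20, and 0.27 on the spike-in scale), with a second, dimmer probe at -0.32. The gap between Bop1 and Pes1 was -0.49 ± 0.29. Of the other large subunit factors, Rrp1 was at 5.81 in bone marrow and 6.07 in fetal liver (-0.25 ± 0.20, second probe -0.21), and Noc2l, which also inhibits histone acetylation, at 4.86 in bone marrow and 4.95 in fetal liver (-0.09 ± 0.20). Both were positive on the spike-in scale, at 0.08 and 0.24. Rrs1, which helps bring in the 5S particle, was at 2.61 in bone marrow and 2.56 in fetal liver (0.05 ± 0.20). Noc3l, a partner of Noc2l, was at 1.39 in bone marrow and 1.23 in fetal liver (0.16 ± 0.20).

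The 3 multifunctional proteins differed widely from each other. Npm1, nucleophosmin, a chaperone of pre-ribosomes and histones, was at 8.02 in bone marrow and 8.96 in fetal liver (-0.94 ± 0.20, 1.92-fold lower in bone marrow). Its 5 probes were all negative, between -1.25 and -0.59, which is a wider spread than the technical error of a gap between 2 differences (0.29). Npm1 and Fbl have processed copies in the mouse genome, and a probe may share signal with them. Ncl, nucleolin, which binds the nascent precursor, was at 5.79 in bone marrow and 6.60 in fetal liver (-0.81 ± 0.20), and its second probe gave -0.69.

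Ddx21, a helicase that links polymerase I transcription with processing, went the other way. Its scaled level was 3.52 in bone marrow and 3.19 in fetal liver (0.32 ± 0.20), and its second probe gave 0.01. It was the highest difference among the 40 members, and it lay above Npm1 and Ncl by gaps of 1.26 and 1.14 in size, each ± 0.29. On the spike-in scale Ddx21 was at 0.66.

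**Figure D3:**
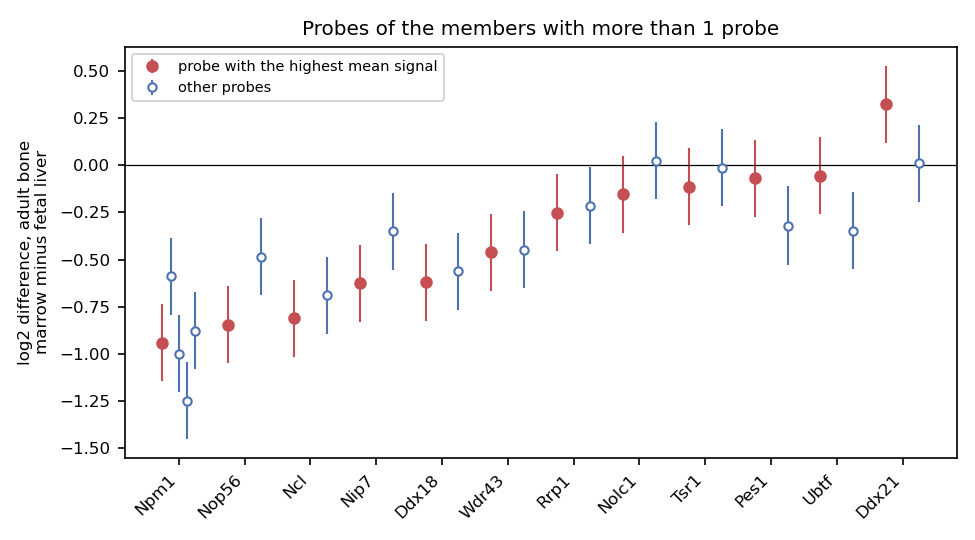
Log2 difference, adult bone marrow minus fetal liver (vertical axis), of each probe of the 12 members with more than 1 probe, with the technical error of the image software. The filled point is the probe with the highest mean signal, which gave the value of the gene, and all probes of a gene had 1 sign except those of Nolc1.

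The probes of a member told the same direction in 11 of the 12 members with more than 1 probe. Their range was 0.21 at the median and 0.66 at most (Npm1), against 0.25 at the median over all genes with several probes. In all, 47 of the 55 probes of the members had negative differences, while 57.7% of all genes were negative by their chosen probe. The share over all probes is not given here, nor is the share of all genes whose probes agree in sign. Besides Npm1, the probes of Ddx21, Nip7, Nop56, Pes1 and Ubtf lay 0.25 to 0.36 apart. The technical error of a gap between 2 differences was about 0.29, and the probes of Pes1 and Nip7 lay within it.

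Within 7 sets, 27 pairs of members were set against each other on their differences, which removes any scaling that adds a constant. Not every set is a complex. Npm1, Ncl and Ddx21 share only the role of multifunctional nucleolar proteins, and Ubtf is a factor beside subunits of polymerase I. The Noc set joins Noc4l of small subunit processing with Noc2l and Noc3l of large subunit processing. The gap exceeded its technical error in 17 pairs and exceeded 2 times that error in 6. Those 6 were Nop58 and Fbl, Nop56 and Fbl, Dkc1 and Gar1, Polr1a and Ubtf, Npm1 and Ddx21, and Ncl and Ddx21. Nop58 and Fbl and the pairs with Ddx21 stayed beyond 2 times the error in all 9 settings. The pairs with Ddx21 did so for every choice of probe, while Nop58 and Fbl have 1 probe each. A setting that adds a constant cannot move a gap, and the same error was used in every setting. Averaging probes took Nop56 and Fbl (-0.41) and Polr1a and Ubtf (-0.51) below that mark, and normexp did so for Dkc1 and Gar1 (-0.51). These pairs were read off after the values were known and are a description of the 2 arrays. Pairs of members from different sets were not counted, so the 17 and the 6 of 27 show nothing particular to these sets.

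A further 125 genes of the same pathway gave a similar but smaller shift. Of these 122 were above background on at least 1 array, with a median difference of -0.32, and 97 were negative (79.5%, against 57.7% of all genes). At least 1.5-fold lower in bone marrow were 19 (15.6%), against the background of 17.5%, and 4 were at least 1.5-fold higher, against 14.9%. The count of larger differences was thus near the background, and the shift lay in many small differences. On the spike-in scale their median was 0.02, against 0.23 for all genes.

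At least 2-fold lower in bone marrow were 3 of them, and all 3 stayed negative on the spike-in scale. Esf1, a nucleolar pre-rRNA processing factor, was at 1.19 in bone marrow and 2.89 in fetal liver (-1.70 ± 0.20). Mphosph10, a processome protein of the U3 particle, differed by -1.25 ± 0.21, and Taf1d, a subunit of the polymerase I selectivity factor, by -1.001 ± 0.20. Xpo1, the export receptor that carries subunits out of the nucleus, was at -0.96, Nle1, a factor of large subunit maturation, at -0.88, and Rpf2, which helps place the 5S particle, at -0.81.

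Where both arrays were above background, the highest differences in that list were those of Utp14b, a retroposed copy of Utp14a, at 1.83 ± 0.35 with dim signals (60.4 in bone marrow, 12.7 in fetal liver), and Mdn1, the giant ATPase of large subunit maturation, at 0.72 with its second probe at 0.27. They were followed by Nop53, a large subunit factor, at 0.60, Ddx55, a helicase, at 0.52, Nufip1, an assembly factor of box C/D particles, at 0.43, and Polr1e, a polymerase I subunit, at 0.31. Polr1e thus differed in sign from Polr1a and Polr1b of the same enzyme.

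**Figure D4:**
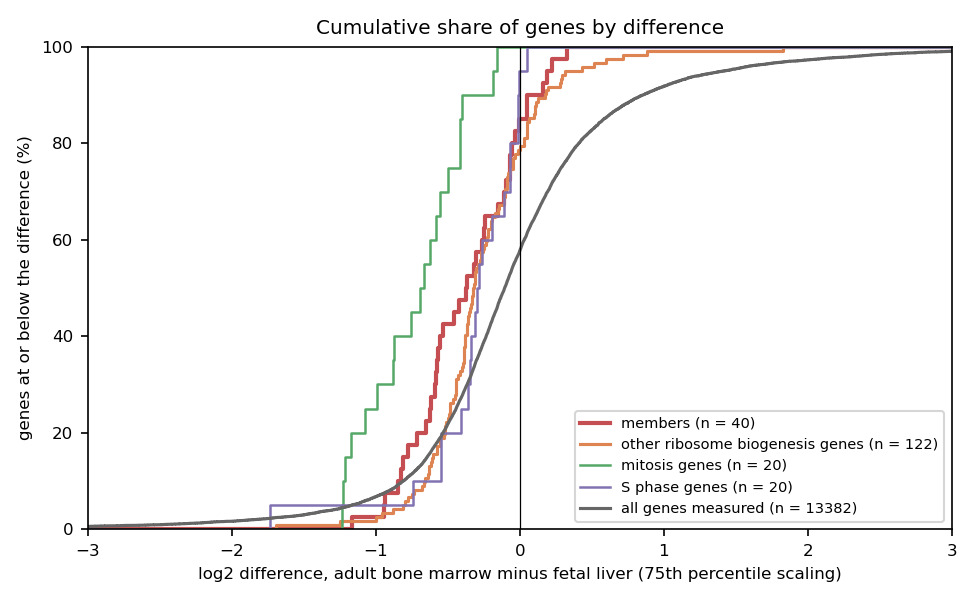
Cumulative share of genes (vertical axis, %) at or below each log2 difference, adult bone marrow minus fetal liver (horizontal axis), for the members, the other ribosome biogenesis genes, the mitosis and S phase genes and all measured genes. The medians were -0.37, -0.32, -0.68, -0.29 and -0.11, and the curves of both ribosome lists are steeper than that of all genes.

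The members' differences were also narrow. Their SD across genes was 0.36, against 0.89 for all measured genes, but all genes include dim ones and bounds. The SD was similar in the other lists, at 0.41 for the other ribosome biogenesis genes, 0.34 for mitosis and 0.39 for S phase genes.

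Mitosis genes shifted the same way as the members, further. They had a median difference of -0.68, with 20 of 20 measured genes negative and 12 (60%) at least 1.5-fold lower in bone marrow, against 17.5% of all genes. Plk1, a mitotic kinase, was among those 12 at -1.24 ± 0.20, while Mki67, a proliferation marker, was just short of the mark at -0.56 ± 0.20. S phase genes had a median of -0.29, with 19 of 20 negative (95%, against 57.7% of all genes). Only 2 of the 20 (10%) were at least 1.5-fold lower, below the share of all genes. On the spike-in scale the medians were -0.34 for mitosis and 0.05 for S phase. There, 18 of 20 mitosis and 8 of 20 S phase genes were negative, against 32.3% of all genes. Of single S phase genes on the percentile scale, Mcm2, a subunit of the replicative helicase, was at -0.11. Pcna, the replication clamp, was at 0.05 and was the only 1 of the 20 above 0. The part of cell cycle state in the members' shift was not tested.

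Among the Myc genes, which encode known activators of ribosome biogenesis, the paralogs went opposite ways. Mycn stood at 1.94 in bone marrow and 4.72 in fetal liver (-2.78 ± 0.20, 6.88-fold lower in bone marrow). Myc had 3.95 in bone marrow and 3.41 in fetal liver (0.54 ± 0.20), and Max, their partner, had 4.31 in bone marrow and 3.97 in fetal liver (0.34 ± 0.20). Their part in the members' values was not tested.

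The labelled cell type was checked on marker genes. Kit differed by -0.0047 ± 0.20 (0.33 on the spike-in scale), Ly6a, the gene of Sca-1, was higher in bone marrow by 2.28, and 10 of 10 progenitor markers were above background on both. Of the 12 lineage markers with a probe, 8 were above background on each array, and those above it on neither included Cd8a and Ms4a1. Summed signals are given as multiples of each array's 75th percentile. The lineage markers summed to 211 in bone marrow, against 79.9 in fetal liver. Ly6c1 and Nkg7, the brightest of them in bone marrow, made up most of that sum and were 4.84-fold and 5.42-fold higher there. Of the 8 measured, 5 were higher and 3 lower in bone marrow, the lower ones being Cd3e (-0.52), Cd4 (-0.23) and Itgam (-0.08). Erythroid markers (6 of 8 above background in bone marrow, 7 in fetal liver) summed to 8.54 in bone marrow, against 9.15 in fetal liver. Gata1, the brightest probe of that list, was higher in bone marrow (0.49), while the list's median difference was -0.74, with 6 of 7 measured genes negative and 5 at least 1.5-fold lower in bone marrow, the same direction as the members. Hepatocyte markers (5 of 8 in bone marrow, 4 in fetal liver) summed to 83.4 in bone marrow, against 38.4 in fetal liver, with most of each sum from Trf. Neutrophil markers (8 of 8 in bone marrow, 6 in fetal liver) summed to 57.8 in bone marrow, against 46.4 in fetal liver. Their median difference was 1.18, and 5 of the 8 had bone marrow levels higher by 2-fold or more, such as Chil3 (25.5-fold) and Ngp (12.7-fold), while S100a8, the brightest, was at -0.15 (0.18 on the spike-in scale). Macrophage markers (5 of 8 on each array) summed to 28.3 in bone marrow, against 34.4 in fetal liver, and B cell markers (2 of 8 on each) to 24.0 in bone marrow, against 30.6 in fetal liver. Csf1r (-0.29) carried most of the macrophage sum and Cd79b (-0.40) most of the B cell sum, so each is nearly that of a single gene. Of the measured genes, 4 of 7 macrophage and 1 of 2 B cell markers were negative. Afp, Trf, Apoa2 and Serpina1a of the hepatocyte list were above background on both arrays. Afp and Trf had differences of 1.26 and 1.27, while Apoa2 was at -0.24 and the dim Serpina1a at -0.75. Of the 5 hepatocyte markers measured, 2 were negative and 3 positive, counting the bound of Fgb. Adgre1, C1qb and Csf1r of the macrophage list were also above background on both arrays. Alb, Apoa1 and Ttr of the hepatocyte list were above background on neither array, nor were C1qa of macrophages and 6 of the 8 B cell markers. The part of other cells in the members' values was not tested.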

How the data were processed

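One single-colour Agilent array was made from each of 2 samples. Per the labels' protocols, sorted cells gave total RNA, of which 20 ng with a spike-in mix was amplified and labelled with Cy3. Per the file headers, the authors' spot intensity values come from Feature Extraction 10.7.1.1, background-subtracted and detrended within each array and not scaled between arrays. The values in the authors' deposited table are a linear ratio: dividing each processed signal by 178.6 (bone marrow) or 133.9 (fetal liver) gave them within 0.1% for 99.99% of single-spot probes. Its column medians were 0.0589 and 0.0604, and no source used here gives how those divisors were chosen.

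Flagged outlier spots (137 in bone marrow and 122 in fetal liver) were left out, no spot was saturated, and repeated spots were averaged. Of 55664 probes on both arrays 27220 were named through the RefSeq accession (gene table of GRCm38.p6, names only), and 28444 were not. Signals were divided by the array's 75th percentile, 178.9 in bone marrow and 134.0 in fetal liver, and taken to log2. A gene took its probe with the highest mean signal and entered when well above background on at least 1 array (47.4% of probes in bone marrow, 46.4% in fetal liver). A gene dim on 1 array has a bound, set against the higher of its own signal and the lowest signal well above background. Spike-in scaling used the median of 8 of 10 E1A probes, whose unscaled difference was 0.08 (SD 0.19), against 0.42 for the percentiles. On 240 probes printed as repeated spots the log2 difference between single spots had an SD of 0.09, which is technical only, and the number of arrays limits the precision. The comparison was tested on simulated data. No test across samples is possible with 1 array per group.

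The members, their roles, the gene lists and the rule for named genes (all members, the 6 lowest and 6 highest of the other pathway genes above background on both arrays with any at least 2-fold different, and fixed cell cycle and Myc genes) were chosen with earlier results of these data known. Genes were called by size, at 1.5-fold and 2-fold. Alternatives changed the scaling, background correction, dim probe filter, probe choice and value source. Normexp used limma 3.58.1 with an offset of 50. Promoter windows came from RefSeq.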

Additional observations from a re-analysis of the deposited data

How the results depend on the processing

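Scaling and background correction changed the counts most. Spike-in scaling put the median of the members at -0.035, left 3 members at least 1.5-fold and 0 at least 2-fold lower in bone marrow, and reversed the median of the other ribosome biogenesis genes to 0.016. It adds a constant, and the gap between the members' and all genes' medians was -0.26 as before. Among all genes, 2347 were at least 1.5-fold lower and 1998 higher in bone marrow with percentile scaling, against 1046 and 3596 with spike-in scaling. The members at least 1.5-fold lower numbered 8, against 13, with the percentile taken over probes above background on both arrays, with quantile normalization, and with normexp. This is 20% of the members, against 13.9%, 15.4% and 9.36% of all genes in these 3 settings. That normexp correction was chosen after seeing the data, on median signals, because the planned one on mean signals was not run. Their gap to all genes' median was then -0.26, -0.20 and -0.20, and Gnl3 stayed past 2-fold in these 3. Normexp also moved 9 members by more than their technical error, with Fbl at 0.0051, Noc2l at 0.15 and Ubtf at 0.18, and put the small subunit median at -0.11. Dropping the dim filter, keeping probes above background on both arrays only, averaging probes, and using the deposited table gave 12 or 13 members at least 1.5-fold lower and medians of -0.38 to -0.37. Naming by the files' own gene names was not run. No paired analysis was possible because each group has 1 array. Signals near background limit Utp18 and Utp15.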
